A study of Mus musculus with 12 samples.

Results

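The fibroblast growth factor (Fgf) pathway was followed in the embryonic mouse pancreas after deletion of β-catenin. The set comprised 39 genes that encode Fgf ligands, their receptors and a co-receptor, receptor adaptors, and genes that Fgf signaling induces to restrain or relay itself. Members were taken by name alone: every probe set with a member as its only gene symbol in the platform annotation was used. This gave 86 probe sets for 38 of the 39 genes, out of 45037 probe sets that name 18193 genes. Frs2, which encodes an adaptor of Fgf receptors, had no probe set named for it, so its expression is not analysed here. No probe set that carries several symbols named a member.
Whole pancreata were profiled on Affymetrix MOE430 2.0 arrays, 1 pancreas on each, with 4 β-catenin KO and 2 wildtype (WT) pancreata on each of 2 days, E14.5 and E16.5. KO embryos were Pdx1Cre/+; beta-cateninflox/flox, and embryos of both genotypes came from matings of Pdx1Cre/+ mice that carried 1 floxed β-catenin allele. The labels call the controls wild type without saying whether any of them carried Cre or a floxed allele. Pdx1-cre acts in the pancreatic epithelium, so mesenchyme, nerves and vessels dissected with the gland keep the gene, and the study regards its Cre expression as probably mosaic. The series text gives the earlier stage a slightly different value, and E14.5 is used here as in the array titles. Arrays are called by genotype and by the code in their titles, such as KO_540G.
Fgf ligands bind receptor tyrosine kinases together with heparan sulfate and, for the hormone-like ligands, with a Klotho co-receptor. The receptors signal through Frs adaptors and the Ras-MAPK relay to ERK, which induces Etv transcription factors and the inhibitors Sprouty, Spred and Dusp6. In the developing pancreas, Fgf10 from the mesenchyme acts on the epithelial receptor Fgfr2b and keeps progenitors dividing.
Each value is a ratio of a probe set's signal to the mean of the WT arrays of the same day, so 1 is the WT mean of that day. Such ratios hold neither a transcript's level nor its change with age, and whether a probe set was above background is unknown. The 4 KO and 2 WT arrays of a day were compared with limma on the log2 scale, and a probe set passed where p, adjusted over the 45037 probe sets, was under 0.05. With 2 WT pancreata a day, each comparison rests on few animals. In whole pancreata, fewer cells of a type and less RNA per cell cannot be told apart. The 3 probe sets of Ctnnb1, which encodes β-catenin, had KO means of 0.841 to 1.21 at E14.5 and 0.678 to 0.961 at E16.5, and none passed. Whether these probe sets lie in the deleted exons is not known.

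Most of the pathway was measured close to the WT mean on both days. The log2 fold change, KO over WT, lay within 0.25 of 0 for 75 of the 86 probe sets at E14.5 (87.2%, against 82.3% of all probe sets) and for 70 at E16.5 (81.4%, against 73.4%). The standard error of a log2 fold change ranged from 0.09 to 0.38 over the members, with a median of 0.13. At E14.5, 0 of the 86 passed in limma, where 0.0111% of all probe sets did, and 7 (8.14%) had an unadjusted p under 0.05, against 6.86% of all probe sets. At E16.5, 2 passed (2.33%), near the 2.62% of all probe sets. A probe set of Fgf13 rose, as 0.802% of all did, and one of Klb fell, as 1.82% did. An unadjusted p under 0.05 was reached by 7 (8.14%) at E16.5, a smaller share than the 16.6% of all probe sets. The effect of the KO differed between E16.5 and E14.5 for 1 member (1.16%), a probe set of Fgfr2, where 0.349% of all probe sets passed and 0.0755% passed with the higher effect at E16.5, as here.
All 4 KO arrays lay beyond both WT arrays for 15 member probe sets at E14.5 (17.4%, with 8 above and 7 below), against 16.2% of all probe sets (8.17% above and 8.06% below). At E16.5 this held for 17 (19.8%, with 13 above and 4 below), against 25.6% (14.5% above and 11.1% below). KO arrays lay above both WT arrays on both days for 4 probe sets (4.65%), 1 each of Fgf4, Fgf13, Fgf18 and Spred1, against 1.86% of all probe sets. They lay on opposite sides on the 2 days for 1 (1.16%), that of Fgfr2, against 1.7%. The median log2 fold change over the 86 was 0.05 on the earlier day and 0.04 on the later, and over all probe sets it was 0.02 and 0.03.

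**Figure D1:**
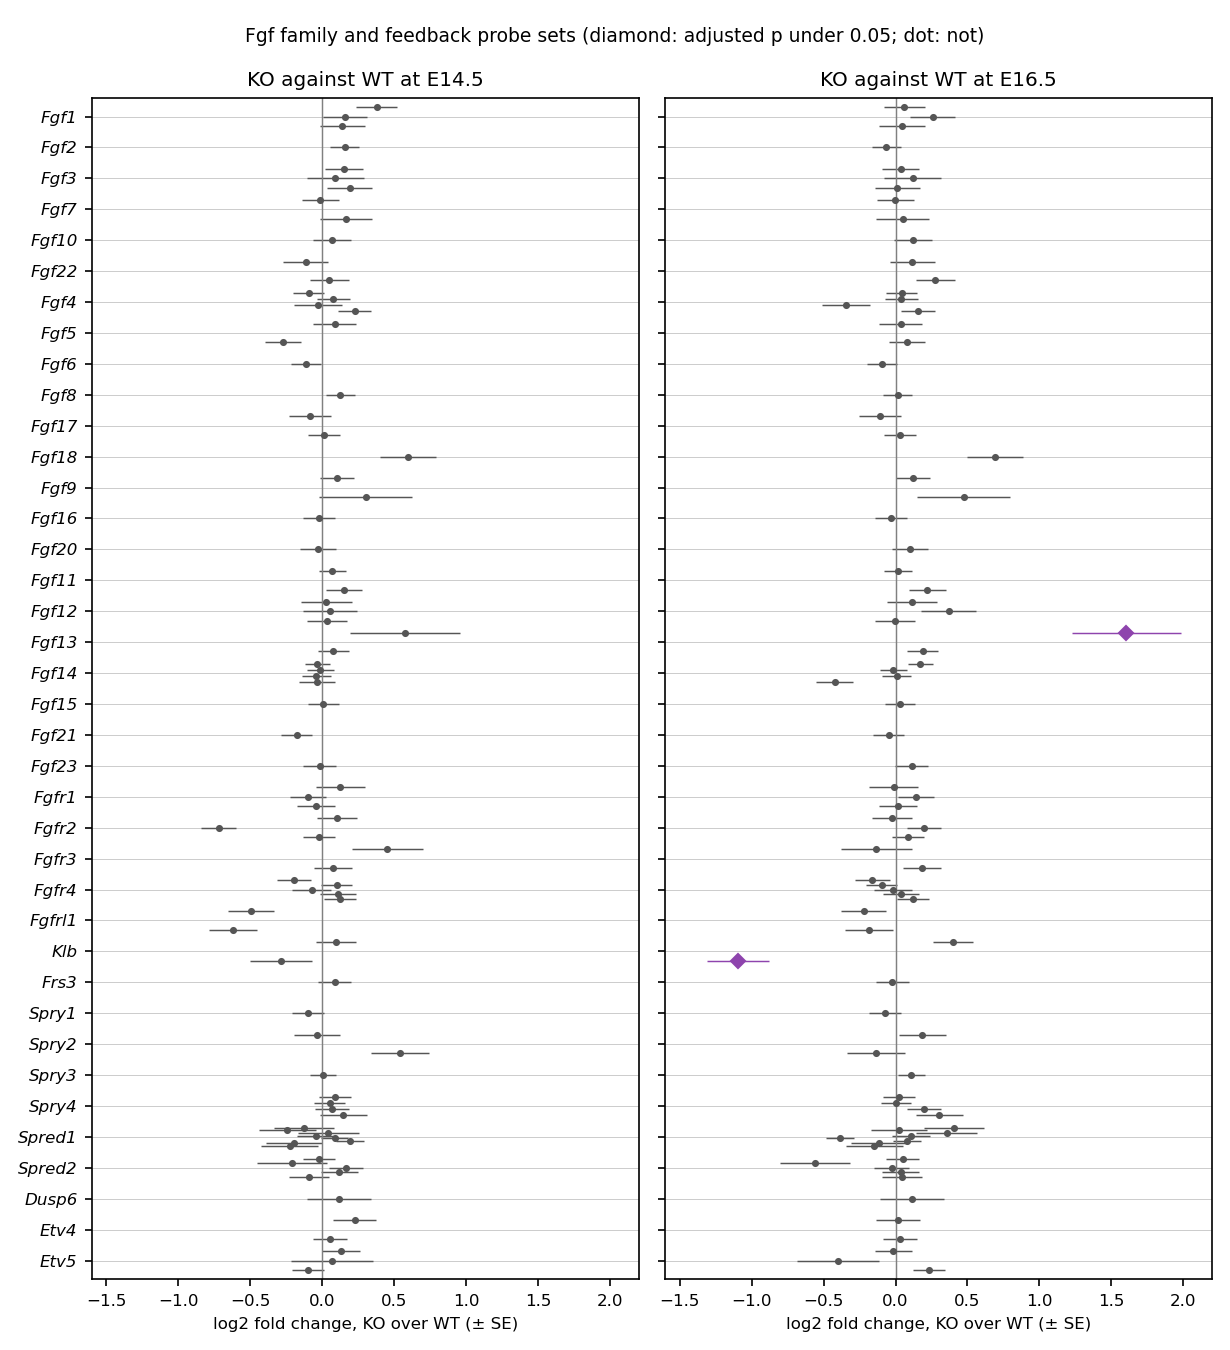
Log2 fold change of KO over WT (x axis, with standard error) for each of the 86 probe sets, by gene (y axis), at E14.5 on the left and E16.5 on the right. Diamonds mark the 2 probe sets that passed at E16.5, Fgf13 at 1.61 and Klb at -1.09, and most other points lie near 0.

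The receptor genes held the lowest member values of E14.5. On probe set 1433489_s_at of Fgfr2, the receptor for Fgf7 and Fgf10 in epithelia, the KO pancreata KO_540C, KO_540G, KO_615A and KO_615B had ratios of 0.587, 0.541, 0.716 and 0.590, against 1.08 and 0.921 in WT pancreata. All 4 KO values lay below both WT values. At E16.5 the same probe set had ratios of 1.10, 1.22, 1.19 and 1.09 in KO_541J, KO_541L, KO_591C and KO_591D, against 1.02 and 0.983 in WT. These KO values lay above both WT values. The KO mean was 0.609 ± 0.0747 (SD, n = 4) at E14.5, with a log2 fold change of -0.72 ± 0.12 (SE) that did not pass (limma adjusted p = 0.149, unadjusted p = 6.63e-05). At E16.5 the KO mean was 1.15 ± 0.0668 (SD, n = 4), with a log2 fold change of 0.20 ± 0.12 (SE, limma adjusted p = 0.459). The effect at E16.5 minus that at E14.5 was 0.92 ± 0.17 (SE, log2 scale), which passed (limma adjusted p = 0.0482).
This difference between the days lies close to the limit. It passed in 6 of 19 alternatives, with limma adjusted p values of 0.0234 to 0.716 and differences of 0.81 to 1.03 over the 19, and of the 12 arrays left out in turn only KO_615A and KO_591D left it past the limit. Without KO_615A the log2 fold change of E14.5 itself passed, at -0.80 (limma adjusted p = 0.0439), and with array weights it did at -0.68 (limma adjusted p = 0.0420). These were the only 2 of 21 alternatives in which it passed. Among the others, a trended and robust variance gave a limma adjusted p of 0.773, and the methods' t-test an adjusted p of 0.944.
The other probe sets of Fgfr2 did not share this pattern. On 1420847_a_at the KO ratios were 0.929, 1.27, 1.05 and 1.07 at E14.5, against 0.952 and 1.05 in WT, and 0.980, 0.978, 0.839 and 1.16 at E16.5, against 1.02 and 0.981 in WT. On 1443211_at they were 0.864, 1.13, 0.976 and 0.985 at E14.5, against 0.993 and 1.01 in WT, and 0.996, 1.04, 1.05 and 1.18 at E16.5, against 0.985 and 1.02 in WT. KO and WT overlapped on both probe sets on both days. Their log2 fold changes at E14.5 were 0.10 (95% interval -0.20 to 0.41) and -0.02 (-0.27 to 0.22), neither of which reaches the -0.72 of the first probe set. Which transcripts or exons of Fgfr2 each probe set reports is not known here. The study reported a decrease of Fgfr2 transcripts in KO at E14.5 from its arrays, and its quantitative RT-PCR found a decrease at that stage too.
Fgfrl1 encodes an Fgf receptor that lacks the kinase domain, and both of its probe sets were low in KO at E14.5. On 1451912_a_at the KO ratios were 0.654, 0.569, 0.803 and 0.600, against 0.945 and 1.05 in WT. On 1447878_s_at they were 0.712, 0.616, 0.899 and 0.644, against 0.984 and 1.02 in WT. All 4 KO arrays lay below both WT arrays on each, with KO_540G the lowest and KO_615A the highest as on Fgfr2. The log2 fold changes of -0.62 ± 0.17 and -0.49 ± 0.16 (SE) did not pass (limma adjusted p = 0.521 and 0.586), and passed in 0 of 22 and 0 of 21 alternatives. At E16.5 the KO ratios were 0.747, 0.822, 0.921 and 1.03 on the first, against 1.13 and 0.871 in WT, and 0.822, 0.751, 0.851 and 1.03 on the second, against 1.06 and 0.943 in WT. KO and WT overlapped on both, with KO means of 0.879 ± 0.122 and 0.862 ± 0.117 (SD, n = 4 each).

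**Figure D2:**
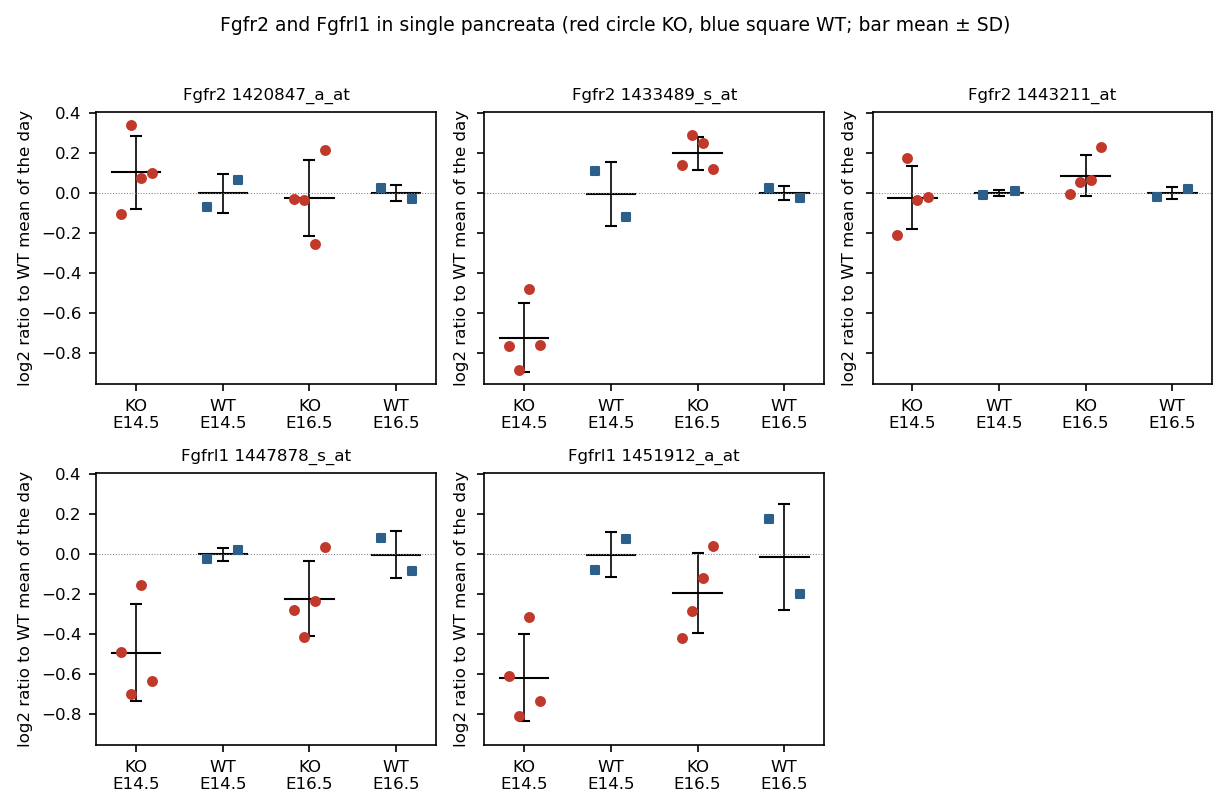
Log2 ratio to the WT mean of the day (y axis) for the 3 Fgfr2 and 2 Fgfrl1 probe sets, 1 point per pancreas (red circles KO, blue squares WT), with mean and SD as bars. On Fgfr2 1433489_s_at the KO points lie below WT at E14.5 and above it at E16.5, and on both Fgfrl1 probe sets they lie below WT at E14.5.

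The epithelium markers were low in 3 of the 4 KO arrays of E14.5, and in KO_615A their median lay above both WT arrays. Of 16 epithelial genes, such as those for E-cadherin and keratins, 12 were lower in KO at E14.5 and 0 passed. As median log2 ratios over the list, KO_540G had -0.64, KO_615B -0.45, KO_540C -0.33 and KO_615A 0.07, against -0.05 and 0.05 in WT. The summed ratio of the 16 genes ranged from 11.1 to 16.4 in KO and from 15.5 to 16.5 in WT. KO_540G was lowest and KO_615A highest on this list too. Ratios do not show whether a marker was at 0, and the part of the epithelial share in the values of Fgfr2 and Fgfrl1 was not tested.
Fgfr1, Fgfr3 and Fgfr4, the other signaling receptors, stayed near the WT mean on most of their 10 probe sets, and none passed. Fgfr1 had KO means of 0.935 to 1.09 at E14.5 and 0.991 to 1.11 at E16.5 over 3 probe sets. On 1421841_at of Fgfr3 the KO ratios of E14.5 were 1.93, 1.17, 1.12 and 1.39, above both WT values, with a log2 fold change of 0.45 ± 0.25 (SE, limma adjusted p = 0.786). At E16.5 that probe set had a KO mean of 0.931 ± 0.247 (SD, n = 4). Fgfr4, with 5 probe sets, had KO means of 0.869 to 1.09 at E14.5 and 0.890 to 1.09 at E16.5.

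The ligand genes of the Fgf7 subfamily signal to Fgfr2 in epithelia. On either day 0 of their 8 probe sets passed in limma, and 0 had an unadjusted p under 0.05. Among all probe sets, 0.0111% passed on the earlier day and 2.62% on the later. The unadjusted p was under 0.05 for 6.86% and 16.6% of them, so 0 among 8 is not far from these shares. Fgf10, the mesenchymal ligand of the pancreatic bud, had KO ratios of 0.936, 1.29, 1.02 and 0.969 at E14.5, against 0.947 and 1.05 in WT. At E16.5 the KO ratios were 1.04, 1.11, 1.01 and 1.21, against 1.01 and 0.988 in WT. KO and WT overlapped on both days. The log2 fold changes on the 1 probe set of Fgf10 were 0.07 (95% interval -0.22 to 0.35) and 0.12 (-0.16 to 0.41). Whether that probe set was above background is unknown, so these intervals cannot exclude a fall of the transcript. Fgf7 had KO means of 0.994 and 1.12 at E14.5 and 1.002 and 1.02 at E16.5 on its 2 probe sets. Over Fgf3, Fgf7, Fgf10 and Fgf22 the limma adjusted p was at least 0.903 at E14.5, and at least 0.345 on the later day.
Fgf1 and Fgf2, ligands with a broad receptor range, gave 1 of 4 probe sets with separated groups at E14.5, where 16.2% of all probe sets had them. On 1423136_at of Fgf1 the KO ratios were 1.53, 1.47, 1.15 and 1.10, against 1.05 and 0.945 in WT. All 4 KO values lay above WT, with a log2 fold change of 0.38 ± 0.14 (SE) that did not pass (limma adjusted p = 0.650). At E16.5 it had 1.11, 1.01, 1.04 and 0.99999 in KO, against 1.08 and 0.919 in WT. The other probe sets of Fgf1 had overlapping groups at E14.5: 1441042_at had 0.955, 1.49, 1.08 and 1.002 in KO, against 1.03 and 0.973 in WT, and 1450869_at had 1.17, 1.21, 1.08 and 0.945 in KO, against 0.887 and 1.11 in WT. At E16.5 1441042_at had 1.22, 1.16, 1.14 and 1.25 in KO, against 1.06 and 0.939 in WT, while 1450869_at had 1.20, 0.856, 0.952 and 1.15 in KO, against 1.06 and 0.943 in WT. Only the first of these pairs was separated, with KO above WT. The KO pancreata averaged 1.12 ± 0.116 on the Fgf2 probe set on the earlier day and 0.957 ± 0.0102 on the later (SD, n = 4 each). On the later day its KO ratios of 0.948 to 0.969 all lay below the WT ratios of 1.02 and 0.984. Thus 2 of the 4 probe sets were separated at E16.5, in opposite directions, where 25.6% of all probe sets were separated.
In the Fgf4 subfamily, Fgf5 was low in KO at E14.5 on 1 of 2 probe sets. On 1438883_at the KO ratios were 0.890, 0.771, 0.920 and 0.745, against 1.04 and 0.958 in WT, and at E16.5 they were 1.07, 1.01, 0.952 and 1.20, against 0.938 and 1.06 in WT. KO lay below WT at E14.5 and overlapped it at E16.5, and the log2 fold change of -0.27 ± 0.12 (SE) at E14.5 did not pass (limma adjusted p = 0.726). On 1426186_a_at the KO ratios were 0.959, 1.20, 0.949 and 1.11 at E14.5, against 0.831 and 1.17 in WT, and 0.913, 1.09, 0.991 and 1.12 at E16.5, against 0.968 and 1.03 in WT. Fgf4 had KO means of 0.937 to 1.18 at E14.5 and 0.769 to 1.12 at E16.5 over 4 probe sets. Fgf6, a ligand of developing muscle, had KO means of 0.928 and 0.938 on the 2 days.
Fgf18, a mesenchymal and skeletal ligand of the Fgf8 subfamily, lay above WT in every KO pancreas on both days. At E14.5 the KO ratios were 1.38, 1.67, 1.29 and 1.71, against 1.11 and 0.890 in WT. At E16.5 they were 1.92, 1.98, 1.35 and 1.30, against 1.08 and 0.916 in WT. The KO means were 1.51 ± 0.208 and 1.64 ± 0.361 (SD, n = 4 each), and the log2 fold changes of 0.60 ± 0.20 and 0.69 ± 0.20 (SE) did not pass (limma adjusted p = 0.602 and 0.0907). Without KO_591D the value of E16.5 was 0.79 and passed (limma adjusted p = 0.0355). It passed in 2 of 22 alternatives, both of which left out KO_591D, and with quantile normalization it was 0.43 (limma adjusted p = 0.785). The value of E14.5 passed in 0 of 22. Of 16 mesenchyme genes, 15 were higher in KO at E14.5 with 0 past the limit, and 12 at E16.5 with 2 past it. The median log2 ratio of this list in KO arrays was 0.13 to 0.47 at E14.5, with a summed ratio of 18.6 to 23.3 in KO and 15.6 to 16.4 in WT. At E16.5 the median was 0.13 to 0.72 in KO arrays, with a summed ratio of 18.7 to 30.0 in KO and 15.5 to 16.5 in WT. The part of mesenchyme in the Fgf18 values was not tested. The relatives of Fgf18, Fgf8 and Fgf17, had KO means of 0.925 to 1.09 over both days.
Fgf9, Fgf16 and Fgf20, which form the Fgf9 subfamily, gave 0 of 4 probe sets with separated groups on either day. Of all probe sets, 16.2% had them at E14.5 and 25.6% at E16.5, so 0 among 4 is not far from these shares. The widest scatter was on 1438718_at of Fgf9, with KO ratios of 1.48, 0.921, 0.989 and 1.66 at E14.5 and 1.32, 2.26, 1.35 and 0.900 at E16.5. Fgf16 and Fgf20 had KO means of 0.979 to 1.08 over both days.

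Among the intracellular Fgf genes, whose proteins bind sodium channels in neurons and do not signal through the receptors, Fgf13 had the highest KO values of all members at E16.5. On 1418497_at the ratios were 3.84, 5.06, 3.26 and 1.35 in KO_541J, KO_541L, KO_591C and KO_591D, against 0.995 and 1.005 in WT. All 4 KO arrays lay above WT, 3 of them above 3 and KO_591D close to WT. The KO mean was 3.38 ± 1.55 (SD, n = 4) and the log2 fold change of 1.61 ± 0.38 (SE) passed by a narrow margin (limma adjusted p = 0.0499). At E14.5 the KO ratios were 1.72, 1.69, 1.25 and 1.37, against 1.01 and 0.991 in WT, with a log2 fold change of 0.58 ± 0.38 (SE, limma adjusted p = 0.848). The difference between the days was 1.03 ± 0.54 (SE, log2 scale, limma adjusted p = 0.571).
The call at E16.5 held in 5 of 22 alternatives. Without KO_591D it was 2.00 (limma adjusted p = 0.000595), and with any other array left out it was 1.36 to 1.61 and missed the limit (limma adjusted p = 0.0569 to 0.196). The second Fgf13 probe set, 1418498_at, had KO ratios of 1.10, 1.11, 0.973 and 1.03 at E14.5, against 1.11 and 0.893 in WT, and 1.19, 1.10, 1.11 and 1.15 at E16.5, against 1.07 and 0.929 in WT. Its log2 fold change at E16.5 was 0.19 (95% interval -0.05 to 0.43), with an upper bound below the 1.61 of the first.
Neuron and glia genes were high in the same arrays. Of 14 such genes measured of 16 listed, 13 were higher in KO at E16.5 and 2 passed, and their median log2 ratio was 1.31 in KO_541J, 0.78 in KO_541L, 0.36 in KO_591C and 0.27 in KO_591D, against 0.09 and -0.09 in WT. Their summed ratio ranged from 18.4 to 82.0 in KO and from 13.0 to 15.0 in WT. KO_591D was lowest on this list and on Fgf13. Among the KO arrays of E16.5 it was also lowest on lists of endocrine, endothelium and leukocyte genes, with median log2 ratios of -0.12, -0.01 and 0.07. On epithelium, acinar, mesenchyme and skeletal muscle genes it was not the lowest, with -0.29, -1.002, 0.22 and 0.19. KO_541L, the highest on Fgf13, was highest on the endocrine, endothelium and leukocyte lists too, while KO_541J was highest on neuron and glia genes. The part of nerve tissue in the Fgf13 value was not tested.
Fgf14 had 4 probe sets, of which 1458830_at had its KO arrays below WT at E16.5. Its KO ratios were 0.765, 0.734, 0.718 and 0.756, against 0.924 and 1.08 in WT, with a log2 fold change of -0.42 ± 0.13 (SE) that did not pass (limma adjusted p = 0.107). At E14.5 they were 0.820, 1.08, 0.908 and 1.12, against 1.02 and 0.977 in WT. The other 3 probe sets went no such way. On 1435747_at the KO ratios were 1.03, 0.983, 0.961 and 0.934 at E14.5, against 0.982 and 1.02 in WT, and 1.19, 1.16, 1.09 and 1.08 at E16.5, against 1.002 and 0.998 in WT. On 1447480_at they were 0.916, 1.07, 0.981 and 1.002 at E14.5, against 1.03 and 0.975 in WT, and 0.993, 0.948, 0.953 and 1.07 at E16.5, against 0.976 and 1.02 in WT. On 1449958_a_at they were 0.906, 1.06, 0.918 and 1.02 at E14.5, against 0.992 and 1.01 in WT, and 0.971, 0.947, 0.990 and 1.12 at E16.5, against 1.02 and 0.976 in WT. Only 1435747_at had separated groups among these, with KO above WT at E16.5. Fgf11 and Fgf12 had KO means of 0.998 to 1.31 over both days and none passed.

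The hormone-like ligands Fgf15, Fgf21 and Fgf23, which regulate bile acid, energy and phosphate metabolism in the adult, had KO means of 0.886 to 1.01 at E14.5 and 0.965 to 1.08 at E16.5. Fgf21, a ligand made in liver and exocrine pancreas, had the lowest of these, 0.886 ± 0.0640 (SD, n = 4) at E14.5, with all 4 KO arrays below WT and an unadjusted p of 0.12 in limma.
Klb encodes β-Klotho, the co-receptor for Fgf15 and Fgf21, and 1 of its 2 probe sets fell in KO at E16.5. On 1449568_at the KO ratios were 0.385, 0.442, 0.534 and 0.483, against 0.786 and 1.21 in WT. All 4 KO arrays lay below both WT arrays, which themselves differed more than the KO arrays did. The KO mean was 0.461 ± 0.0632 (SD, n = 4), with a log2 fold change of -1.09 ± 0.21 (SE, limma adjusted p = 0.0246). At E14.5 the KO ratios were 0.889, 0.656, 0.757 and 0.965, against 0.826 and 1.17 in WT, with overlapping groups and a log2 fold change of -0.29 ± 0.21 (SE, limma adjusted p = 0.885). The difference between the days was -0.81 ± 0.30 (SE, log2 scale, limma adjusted p = 0.358).
The call of Klb at E16.5 held in 15 of 22 alternatives. It ended without WT_628G (-0.78, limma adjusted p = 0.175), KO_541J (-1.01, 0.0667) or KO_541L (-1.08, 0.0628). The other probe set, 1426075_at, went the opposite way at E16.5, with KO ratios of 1.39, 1.16, 1.22 and 1.55, against 1.04 and 0.960 in WT. All 4 KO arrays lay above WT there, with a log2 fold change of 0.40 ± 0.14 (SE) that did not pass (limma adjusted p = 0.159). At E14.5 it had 0.913, 1.24, 1.06 and 1.09 in KO, against 1.02 and 0.978 in WT.
Acinar genes were low in the KO arrays of E16.5. Of 13 acinar genes measured of 16 listed, 12 were lower in KO at E16.5 and 8 fell, and the median log2 ratio was -2.44 in KO_541J, -3.46 in KO_541L, -1.49 in KO_591C and -1.002 in KO_591D, against -0.09 and 0.09 in WT. Their summed ratio ranged from 2.98 to 5.91 in KO and from 12.02 to 14.0 in WT. Epithelium genes were lower for 13 of 16, with 2 that fell, and their summed ratio ranged from 9.65 to 13.5 in KO and from 13.6 to 18.4 in WT. The part of these cells in the Klb value was not tested.

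**Figure D3:**
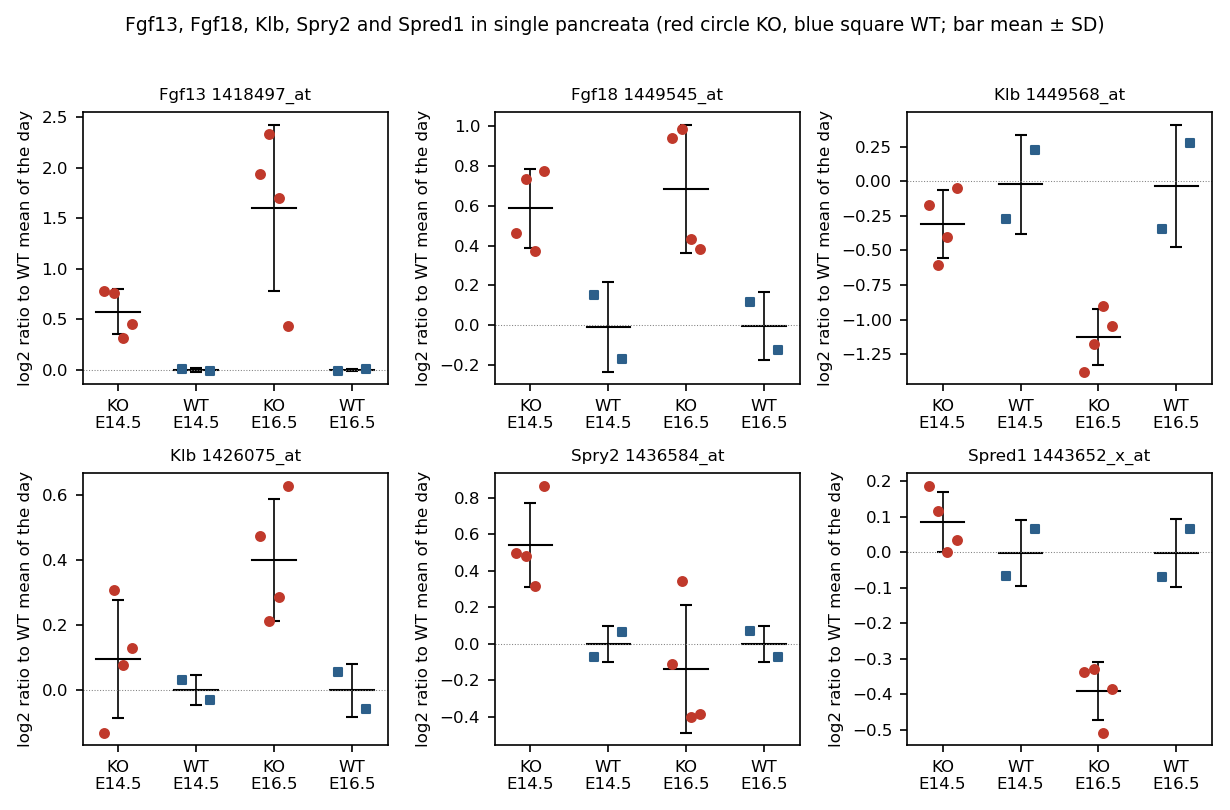
Log2 ratio to the WT mean of the day (y axis, each panel with its own scale) for Fgf13, Fgf18, both Klb probe sets, Spry2 1436584_at and Spred1 1443652_x_at, 1 point per pancreas (red circles KO, blue squares WT), with mean and SD as bars. At E16.5 the KO points of the 2 Klb probe sets lie on opposite sides of WT, and KO_591D is the lowest KO point of Fgf13.

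**Figure D4:**
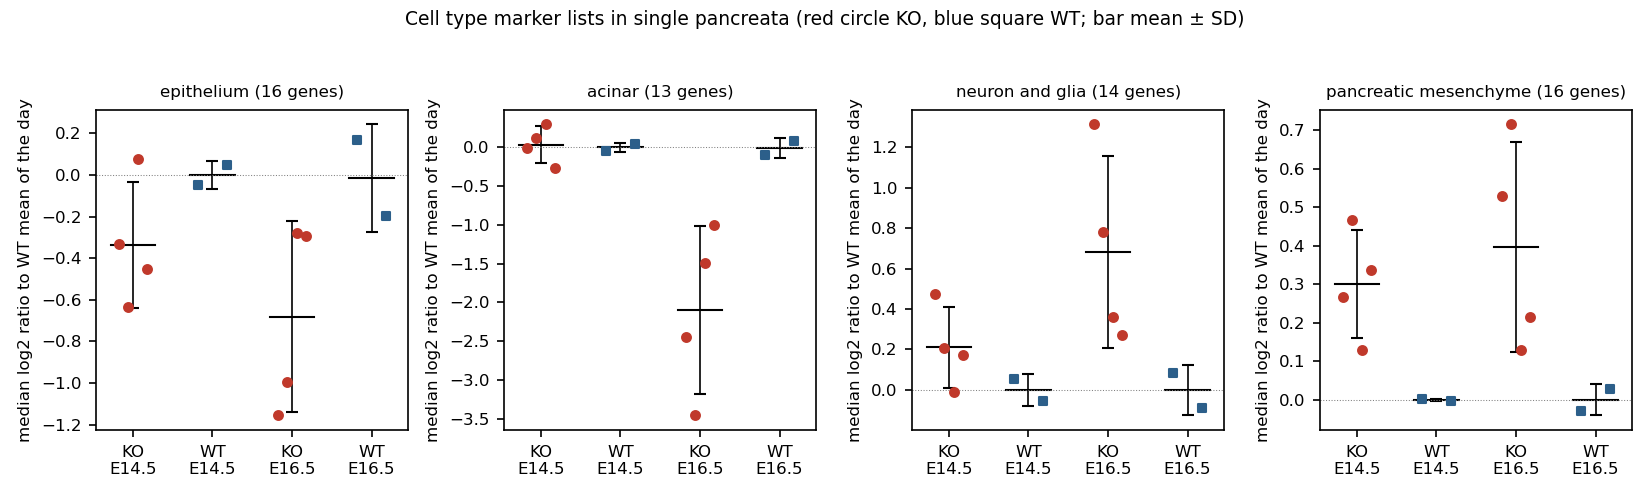
Median log2 ratio to the WT mean of the day (y axis) over the measured genes of 4 marker lists, 1 point per pancreas (red circles KO, blue squares WT), with mean and SD as bars. Acinar genes of E16.5 lie between -3.46 and -1.002 in KO, and neuron and glia genes between 0.27 and 1.31.

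The feedback genes, which report Fgf and other ERK input, gave 0 probe sets past the limit in limma on either day. Of all probe sets, 0.0111% passed at E14.5 and 2.62% at E16.5. Of the 27 probe sets of Sprouty, Spred, Dusp6 and Etv genes, 1, of Spry2, had an unadjusted p under 0.05 at E14.5 (3.7%, against 6.86% of all probe sets). At E16.5 there were 2, of Spred1 and Spred2 (7.41%, against 16.6%). Dusp6, an ERK phosphatase, had KO ratios of 1.22, 0.724, 1.28 and 1.22 at E14.5 and 0.940, 1.34, 1.13 and 0.955 at E16.5, and its log2 fold change was 0.12 on each day (95% interval -0.37 to 0.60 on both). Etv4, a transcription factor downstream of Fgf receptors, had KO means of 1.18 ± 0.178 and 1.04 ± 0.145 on its probe sets at E14.5 and of 1.02 on both at E16.5. Etv5, its close relative, had KO means of 0.935 to 1.10 at E14.5 and 0.763 to 1.18 at E16.5 over 3 probe sets. Frs3, the measured receptor adaptor, had KO means of 1.06 ± 0.0823 and 0.990 ± 0.117 (SD, n = 4).
Sprouty proteins restrain receptor tyrosine kinase signaling. Of their 8 probe sets 1 had separated groups at E14.5, where 16.2% of all probe sets did. On 1436584_at of Spry2 the KO ratios were 1.41, 1.40, 1.25 and 1.82, against 0.952 and 1.05 in WT, and at E16.5 they were 0.927, 1.27, 0.757 and 0.766, against 1.05 and 0.951 in WT. KO lay above WT at E14.5 and straddled it at E16.5. The log2 fold change of 0.54 ± 0.20 (SE) at E14.5 did not pass (limma adjusted p = 0.642), nor did the difference between the days of -0.68 ± 0.28 (SE, limma adjusted p = 0.424). The other Spry2 probe set, 1421656_at, had 0.827, 1.08, 1.07 and 0.950 in KO at E14.5, against 1.02 and 0.979 in WT, and 1.05, 1.01, 1.05 and 1.50 at E16.5, against 1.05 and 0.945 in WT. Spry1, Spry3 and Spry4 had KO means of 0.933 to 1.25 over both days. The highest of these, on 1445669_at of Spry4 at E16.5, was 1.25 ± 0.203 (SD, n = 4), with KO above WT and an unadjusted p of 0.084 in limma.
Spred1, an inhibitor of the Ras-MAPK relay, had 8 probe sets that did not move together. On 1443652_x_at the KO ratios of E16.5 were 0.791, 0.796, 0.703 and 0.765, against 0.953 and 1.05 in WT, and at E14.5 they were 1.14, 1.08, 1.0004 and 1.02, against 0.954 and 1.05 in WT. KO lay below WT at E16.5, with a log2 fold change of -0.39 ± 0.10 (SE) that missed the limit (limma adjusted p = 0.0582), and which passed with array weights (limma adjusted p = 0.0461). On 1423160_at the KO ratios of E16.5 were 1.52, 1.72, 1.27 and 0.930, against 0.956 and 1.04 in WT, a log2 fold change of 0.41 ± 0.21 (SE, limma adjusted p = 0.362). This probe set went the other way in 3 of the 4 KO arrays.
The remaining probe sets of Spred1 lay between these. At E16.5 the KO ratios were 0.950, 1.36, 1.07 and 0.774 on 1423161_s_at, against 0.992 and 1.01 in WT, and 1.29, 1.58, 1.23 and 1.05 on 1423162_s_at, against 0.899 and 1.10 in WT. They were 1.04, 1.18, 1.03 and 1.06 on 1428777_at, against 0.997 and 1.003 in WT, and 1.06, 1.01, 1.07 and 1.09 on 1445228_at, against 1.01 and 0.995 in WT. They were 0.906, 1.03, 0.896 and 0.779 on 1452911_at, against 1.23 and 0.767 in WT, and 0.757, 1.03, 0.928 and 0.882 on 1460116_s_at, against 1.14 and 0.861 in WT. On 1428777_at and 1445228_at all 4 KO arrays lay above WT by small steps, and on the other 4 the groups overlapped. At E14.5 the KO means of Spred1 ranged from 0.852 to 1.15 over the 8 probe sets, with the lowest KO value on KO_540G in 5 of them. Spred2 had 5 probe sets, of which 1434403_at had KO ratios of 0.659, 0.853, 0.616 and 0.589 at E16.5, against 1.15 and 0.851 in WT, with KO_541L above the lower WT value (log2 fold change -0.56, limma adjusted p = 0.273).

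Pathway genes beyond the members were counted in lists, each by 1 probe set that was chosen by its name. Of 54 measured list entries, 2 passed at E16.5 (3.7%, against 2.62% of all probe sets) and 0 at E14.5 (against 0.0111%). Il17rd stands on 2 of the lists and was counted in each. Of 7 co-receptors, carriers and membrane modulators measured of 7 listed, Flrt3 rose and 0 fell. Flrt3 encodes a membrane protein that binds Fgf receptors and promotes their signaling. On 1429310_at its KO ratios at E16.5 were 3.56, 3.35, 2.57 and 1.76, against 0.978 and 1.02 in WT, with a log2 fold change of 1.44 ± 0.28 (SE, limma adjusted p = 0.0228). The KO arrays lay well above WT, and 1453102_at had a log2 fold change of 0.52 ± 0.17 (SE, limma adjusted p = 0.143) in the same direction. The call on the first probe set ended in 8 of 22 alternatives, among them without WT_622A, WT_628G, KO_541J or KO_541L (limma adjusted p = 0.115, 0.0918, 0.0584 and 0.0576).
Of 14 further ERK feedback and target genes measured of 15 listed, Egr1, an immediate early transcription factor, rose at E16.5 and 0 fell. Its KO ratios were 1.41, 1.65, 1.89 and 2.19, against 0.927 and 1.07 in WT, with a log2 fold change of 0.82 ± 0.19 (SE, limma adjusted p = 0.0474). All 4 KO arrays lay above WT, but the call ended in 13 of 22 alternatives, 8 of which left out 1 array: KO_540C, KO_615B, WT_522B, WT_522C, KO_541L, KO_591C, WT_622A or WT_628G (limma adjusted p = 0.0601 to 0.243). Of 19 genes measured of 20 listed for heparan sulfate chains and core proteins, and of 14 measured of 19 listed for the Ras-MAPK relay, 0 passed on either day. Their median log2 fold changes lay between -0.04 and 0.04 on both days. An unadjusted p under 0.05 in limma was reached at E14.5 by 1 heparan sulfate gene (5.26%) and 2 relay genes (14.3%), against 6.86% of all probe sets, and on the later day by 5 (26.3%) and 2 (14.3%), against 16.6%.
On probe sets that this count leaves out, named after their values were seen, 3 further genes of these lists passed at E16.5. Extl3, a glycosyltransferase that starts heparan sulfate chains, had KO ratios of 0.454, 0.491, 0.526 and 0.553 on 1434703_at, against 1.10 and 0.905 in WT, a log2 fold change of -0.98 ± 0.11 (SE, limma adjusted p = 0.00182) that held in 19 of 22 alternatives. At E14.5 the same probe set had a KO mean of 0.973 ± 0.0640 (SD, n = 4). The difference between the days of -0.94 ± 0.16 (SE) passed (limma adjusted p = 0.0364), and it missed the limit without any 1 of 9 of the arrays (limma adjusted p = 0.0596 to 0.226), KO_540G, KO_591D and WT_628G being the exceptions. At E16.5 the log2 fold change on the other Extl3 probe set was -0.32 ± 0.15 (SE, limma adjusted p = 0.333). Sulf2, an extracellular sulfatase that trims heparan sulfate, had KO ratios of 4.18, 4.64, 2.89 and 2.06 on 1447602_x_at, against 0.869 and 1.13 in WT, a log2 fold change of 1.73 ± 0.27 (SE, limma adjusted p = 0.00962) that held in 17 of 21 alternatives and ended without WT_622A (1.54, limma adjusted p = 0.0775). That day the log2 fold change was 1.44 ± 0.39 on 1430388_a_at and -0.14 ± 0.18 on 1442408_at (SE, limma adjusted p = 0.0776 and 0.789), so the 3 did not share a direction. Flrt2, a relative of Flrt3, had KO ratios of 1.57, 1.82, 1.43 and 1.47 on 1456874_at, against 0.828 and 1.17 in WT, with a log2 fold change of 0.67 ± 0.16 (SE, limma adjusted p = 0.0478) that ended in 13 of 22 alternatives. Without WT_622A it was 0.42. The other Flrt2 probe sets, 1438702_at and 1455096_at, had log2 fold changes of 0.39 ± 0.19 and 0.35 ± 0.19 at E16.5 (SE, limma adjusted p = 0.346 and 0.419).

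The promoters of the members were searched for 2 motifs, the Tcf/Lef core CTTTGA, to which β-catenin's partners bind, and the Ets core CCGGAAGT, the site class of Etv factors. Both strands of the 250 bases before each RefSeq gene start (build GRCm38.p6) were read, for 37 windows of 29 members. The Tcf/Lef core was found in 3 windows, those of Fgf3, Fgf6 and Fgf23, and in 13.8% of 32851 windows of all genes. The Ets core was found in 2 windows, those of Fgfrl1 and Frs2, and in 2.88% of all windows. The motifs do not overlap in letters. The sequences below show the starts of Fgfr2 and Klb, on which the day difference and the fall at E16.5 were measured, and the Fgfrl1, Fgf3, Fgf6 and Fgf23 stretches that hold a motif, in capitals. Each runs 5′ to 3′ on the strand of its gene.
Fgfr2, 200 bases before its start at chr7:130266809-130267008, minus strand: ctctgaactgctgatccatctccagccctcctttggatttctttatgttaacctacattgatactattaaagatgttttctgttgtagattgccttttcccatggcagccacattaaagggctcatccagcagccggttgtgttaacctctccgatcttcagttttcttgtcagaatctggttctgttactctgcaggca
Klb, 200 bases before its start at chr5:65348211-65348410, plus strand: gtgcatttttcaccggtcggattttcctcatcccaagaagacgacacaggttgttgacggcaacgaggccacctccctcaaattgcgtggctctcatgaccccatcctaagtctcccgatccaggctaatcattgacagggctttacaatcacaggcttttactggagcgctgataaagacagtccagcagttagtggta
Fgfrl1, 100 bases before its start at chr5:108694129-108694228, plus strand: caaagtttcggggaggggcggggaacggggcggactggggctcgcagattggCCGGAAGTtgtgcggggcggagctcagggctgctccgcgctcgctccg
Fgf3, at chr7:144838368-144838467, plus strand: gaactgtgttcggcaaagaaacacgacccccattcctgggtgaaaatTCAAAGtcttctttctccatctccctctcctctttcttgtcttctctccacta
Fgf6, at chr6:127015292-127015391, plus strand: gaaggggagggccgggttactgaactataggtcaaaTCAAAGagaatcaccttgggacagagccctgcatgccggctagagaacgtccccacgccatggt
Fgf23, at chr6:127072756-127072855, plus strand: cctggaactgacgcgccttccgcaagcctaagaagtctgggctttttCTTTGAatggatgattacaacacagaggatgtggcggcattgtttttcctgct
The letters TCAAAG in Fgf3 and Fgf6 are the Tcf/Lef core on the opposite strand. The 3 members whose windows hold this core, Fgf3, Fgf6 and Fgf23, had KO means of 0.928 to 1.16 on both days. The windows of Fgfr2 and Klb hold neither motif, which says only that these letters are not in the bases searched.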

How the data were processed

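The authors amplified the RNA of 12 single pancreata in 2 rounds, ran RMA in GeneSpring on the array files and deposited linear ratios of each signal to the mean of the WT arrays of the same day. Ratios range from 0.01 to 26.4, and for every probe set the WT pair of 1 day adds up to 2 (deviation at most 3e-07). Of 45101 probe sets 64 controls were set aside. Log2 ratios, with no pseudocount, were fitted as 4 groups with limma 3.58.1 in R 4.3.3 (8 residual degrees of freedom, p values adjusted by Benjamini and Hochberg over 45037 probe sets). The fit was tested on simulated data. Probe sets are named for genes by the platform annotation, which names 1 gene for 34945, several for 932 and none for 9160. A gene counts once in a list, by a probe set chosen by its suffix. Every array is given for Fgfr2, Fgf10 and each member probe set past the limit, or with an unadjusted p under 0.05 and separated groups. Other probe sets of those genes are given by array or, for Spred1 at E14.5, mostly by mean, and pathway genes past the limit by the arrays of E16.5. Members, lists and rules were chosen with earlier results of these data known. Other settings tried were trended, robust variances, separate fits of the 2 days, quantile normalization, median centring, array weights, the number in array names as a random block (statmod 1.5.0), a pseudocount of 0.1, the methods' t-test, dropping the _x_at and _s_at probe sets and dropping each array in turn. Promoter sequences and their coordinates are from RefSeq (GRCm38.p6). Plots were made in matplotlib 3.10.9.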

Additional observations from a re-analysis of the deposited data

Results flagged for a closer look

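On 1421656_at of Spry2 at E16.5, KO_591D stood apart from the other KO pancreata with a ratio of 1.50, where the others had 1.01 to 1.05 (its gap to the next was 0.905 of the range, above Dixon's critical value for 4 samples). It was the only such case among 60 KO groups examined, where chance gives about 3. On 1433489_s_at of Fgfr2, the effect of the KO at E16.5 minus that at E14.5 was 0.92 on the log2 scale (limma adjusted p = 0.0482).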

How the results depend on the processing

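At E14.5, 0 member probe sets passed in limma (7 had an unadjusted p under 0.05), and 1 did with array weights, and leaving out each array gave 0 to 1. At E16.5, 2 passed, and 0 did with a trended and robust variance, each day on its own arrays, quantile normalization or the methods' t-test, 1 with median centring or a pseudocount of 0.1, 3 with array weights (Fgf13, Klb and Spred1), and 5 without KO_540G and KO_591D together, a setting chosen after seeing the data, and leaving out each array gave 0 to 3. The difference between the days gave 1, and 0 with a trended and robust variance, quantile normalization, median centring or without _x_at and _s_at probe sets, which removes the Fgfr2 probe set, and 2 without both arrays, and leaving out each array gave 0 to 2. Except for that removal the cause of these changes was not tested. KO_540G held the highest KO ratio in 43 member probe sets (50% against 45.7% of all) and KO_591D in 42 (48.8% against 44.3%). Of 20 single results under these settings (431 values), 89 values lost a call, 6 gained one and 0 turned direction. The last count says little about stability. These results were picked for a call or for separated groups, and several settings leave the log2 fold change as it was. No paired analysis was possible because no number in the array names is shared by KO and WT pancreata. Both WT arrays of E14.5, WT_522B and WT_522C, share a number. So do KO_540C and KO_540G, KO_615A and KO_615B, KO_541J and KO_541L, and KO_591C and KO_591D. The labels do not say what the number stands for. An effect of it cannot be told apart from that of genotype, and arrays that share it may not be independent. With 2 WT pancreata a day, changes several times their standard error could miss the limit. At E14.5, Fgfr2 1433489_s_at had -0.72 ± 0.12 (SE, limma adjusted p = 0.149) and Fgfrl1 1451912_a_at had -0.62 ± 0.17 (SE, limma adjusted p = 0.521). Signal over background is unknown as well, so a probe set that did not pass is not shown to be unchanged.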
